A study of Homo sapiens with 2 samples.

Results

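The interferon response and HLA class I genes followed here were 44 genes chosen by symbol, covering RNA sensors, interferon signaling, interferon-stimulated genes and the presentation of peptides by HLA class I. Of these, 42 were found among the 12014 rows of the expression files and IFI27 and BST2 were not analysed here. A mean level of at least 1 FPKM over both libraries was reached by 40 members, and IFI44L and ISG20 were below it. RNA-seq was carried out on ACHN, an established human renal cell carcinoma line, in which KIAA1429, a subunit of the m6A methyltransferase complex, was targeted by a lentiviral shRNA (shKIAA1429, called a knockout in the sample labels), beside ACHN cells with a control lentiviral shRNA (shNC). Both were stable lines kept after puromycin selection, and the sources do not name which of the KIAA1429 shRNAs was sequenced. There was 1 library per group, so no difference has a replicate check and no test was run. The only yardstick for a member is the spread of the changes of all other genes between the same 2 libraries.

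Interferons are cytokines that bind receptors on the cell surface and switch on JAK kinases, which phosphorylate STAT proteins. Type I interferon leads to a complex with STAT2 and IRF9 that binds the interferon-stimulated response element, whereas interferon gamma leads to STAT dimers that bind the gamma-activated site. Cytosolic sensors such as RIG-I (DDX58) and MDA5 (IFIH1) start the response when they meet double-stranded or uncapped RNA. HLA class I molecules, a heavy chain joined to B2M, carry peptides to the surface for inspection by T cells, and interferons are known to raise their transcription.

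The regulatory letters that link these genes were read from RefSeq promoter windows of GRCh38.p14, each 300 bases long and running from 250 bases before to 50 bases after a transcript start. Windows were matched for 36 of the 44 members. The core of the interferon-stimulated response element, GAAA followed by any 2 bases and GAAA again, on either strand, was present in a window of 23 of these 36 members (63.9%), compared with 1195 of 27305 genes in the table (4.38%). More than 1 match was found for 16 members. The gamma-activated site, TTCNNNGAA, was present for 9 of the 36 members and for 2560 of the 27305 genes (9.38%), and matches of both motifs overlapped in 3 members. A match is a description of letters and not a bound site. Stretches from 8 members, picked among those with a match, are printed to show the letters in genes with unlike functions. These are a ubiquitin-like protein, RNA-binding proteins, a ubiquitin ligase and the presentation machinery. The fixed letters of the matches are the same because the search asked for them. Each is written 5′ to 3′ on the strand of the gene, with the matches in capitals and 25 bases on either side. A match on the opposite strand reads TTTC, 2 bases and TTTC, as in the IFIT genes.
ISG15: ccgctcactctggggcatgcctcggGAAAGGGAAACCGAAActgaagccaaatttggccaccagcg
IFIT1: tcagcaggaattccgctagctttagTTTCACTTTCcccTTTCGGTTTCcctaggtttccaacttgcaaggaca
IFIT3: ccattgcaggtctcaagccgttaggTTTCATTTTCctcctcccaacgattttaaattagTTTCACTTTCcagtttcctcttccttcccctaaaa
IFIT5: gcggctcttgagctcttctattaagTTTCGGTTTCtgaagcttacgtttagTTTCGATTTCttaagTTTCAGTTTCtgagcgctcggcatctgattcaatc
DTX3L: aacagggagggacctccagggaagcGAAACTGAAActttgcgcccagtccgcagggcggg
TAP2: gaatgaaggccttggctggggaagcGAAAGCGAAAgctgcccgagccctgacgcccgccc
TAPBP: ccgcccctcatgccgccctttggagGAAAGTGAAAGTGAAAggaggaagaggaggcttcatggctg
B2M: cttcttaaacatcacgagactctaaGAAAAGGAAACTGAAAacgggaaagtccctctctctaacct
The stretch of ISG15 lies at chr1:1013359-1013424 on the plus strand, and its matches begin 113 and 107 bases before the start. Those of IFIT1, IFIT3 and IFIT5 lie at chr10:89392482-89392554, chr10:89327816-89327909 and chr10:89414498-89414598, also on the plus strand. DTX3L is shown at chr3:122564307-122564366 on the plus strand. The same match, read on the other strand, stands 41 bases before the start of PARP9, so these neighbours share it. TAP2 and TAPBP lie at chr6:32838763-32838822 and chr6:33314058-33314123 on the minus strand and B2M at chr15:44711348-44711413 on the plus strand.

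For the gamma-activated site, IRF1 and IRF9 are printed because they encode transcription factors of the response and because their log2 changes, 0.64 and -0.44, had opposite signs. The capitals mark TTCNNNGAA.
IRF1: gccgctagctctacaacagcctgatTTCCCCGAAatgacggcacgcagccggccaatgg
IRF9: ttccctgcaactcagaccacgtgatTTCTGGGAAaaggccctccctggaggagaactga
The stretch of IRF1 lies at chr5:132490864-132490922 on the minus strand and that of IRF9 at chr14:24161177-24161235 on the plus strand, with matches that begin 124 and 63 bases before the start.

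The authors deposited FPKM, fragments per kilobase of gene and per 1000000 fragments of the library, so that read depth is unknown. Over all listed genes the values summed to 283046 with shNC and 249409 with shKIAA1429, of which mitochondrial genes made up 42.2% and 34.6%. Without them the sums were 163587 and 163171. KIAA1429, listed as VIRMA, was at 3.92 FPKM with shNC and 3.22 FPKM with shKIAA1429, or 82.1% of control, a log2 change of -0.22. The reference genes ACTB and GAPDH were at 84.1% and 80.7% of control, with log2 changes of -0.25 and -0.31. At 82.1% of control, the targeted gene lay between these reference genes. A lower level of it relative to them is thus not seen in the library labelled shKIAA1429. The paper reports lower KIAA1429 RNA and protein in its ACHN knockdown cells, by RT-qPCR and western blot. Renal epithelial markers had values for 7 of 8 genes and summed to 654 FPKM with shNC and 553 FPKM with shKIAA1429. VIM, at 368 and 228 FPKM, was the largest part of both sums and was lower by more than the sum was. Also lower were LHX1 at 11.0 and 4.44 FPKM, EPCAM at 32.8 and 23.1 FPKM and KRT8 at 78.3 and 74.6 FPKM. Higher were PAX8 at 64.7 and 104 FPKM, PAX2 at 31.4 and 39.3 FPKM and KRT18 at 67.4 and 78.6 FPKM. Of 7 leukocyte markers only LYZ and CD68 had values, with a sum of 7.80 and 2.21 FPKM, while PTPRC, CD3E, CD14, MS4A1 and NKG7 were not analysed here. Endothelial markers had values for 0 of 3 genes and fibroblast markers for 2 of 4, which summed to 1.75 and 2.60 FPKM. The part of these genes in the results below was not tested.

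As a set, the interferon and class I genes shared no direction. A log2 change is given here as log2 of the shKIAA1429 level plus 1 FPKM, minus the same for shNC, so changes of low genes come out smaller than the plain ratio. The median log2 change of the 40 members was -0.03, against 0.06 over the 10702 genes with a mean of at least 1 FPKM, and 19 members were above 0 and 21 below. After scaling both libraries to a total of 1000000 (TPM), which also counts the mitochondrial genes, these medians became 0.15 and 0.24. Of the members, 3, IFIT2, IRF1 and IRF7, were higher with shKIAA1429 by more than 0.5 on the log2 scale and 1 member, USP18, was lower. That is 7.50% and 2.50% of the members, where 9.90% and 6.12% of all genes passed the same limit upward and downward. As deposited, neither share was above that of all genes. Centring all changes on their median turned the background to 7.64% and 7.69% and the count of members to 3 higher and 2 lower. Scaling to TPM turned the background to 23.9% and 4.59% and the count to 10 of the 40 members higher and 1 lower. On that scale the higher share of the members was slightly above that of all genes. At 1.5, the limit that the study's methods give for differentially expressed genes, 0 members were higher and 0 lower, where 0.383% and 0.252% of all genes were. The study's methods use it with DESeq2 and a p-value limit. Here it was set on changes with 1 FPKM added and no test, so the counts are not at the same threshold.

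Whether the members were spread more widely than other genes depended on the measure. The log2 changes of the members ran from -0.52 to 0.78. Their SD was 0.31 against 0.40 over all genes, and their median change regardless of sign was 0.19 against 0.22. The 25th to the 75th percentile ran from -0.17 to 0.29 for the members and from -0.15 to 0.27 for all genes. With a mean of 1 to 10 FPKM, the median change regardless of sign was 0.28 for the members and 0.22 for all genes. With a mean of at least 10 FPKM, it was 0.13 and 0.21. Among the 26 members with a mean of 1 to 10 FPKM, 2 were higher and 1 was lower past 0.5, and in that band 10.1% and 5.99% of all genes were. Among the 14 members with a mean of at least 10 FPKM, 1 was higher and 0 were lower, where 9.51% and 6.39% of all genes were. The 42 members summed to 546 FPKM with shNC and 547 FPKM with shKIAA1429, equal to 0.334% and 0.335% of the sum without mitochondrial genes. The order of the members from high to low was much the same, with a Spearman correlation of 0.97 between the libraries over 40 genes, a description over genes that share their libraries (0.95 over all genes). In RNA from whole cultures, fewer cells that express a gene and less of its RNA per cell cannot be told apart.

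**Figure D1:**
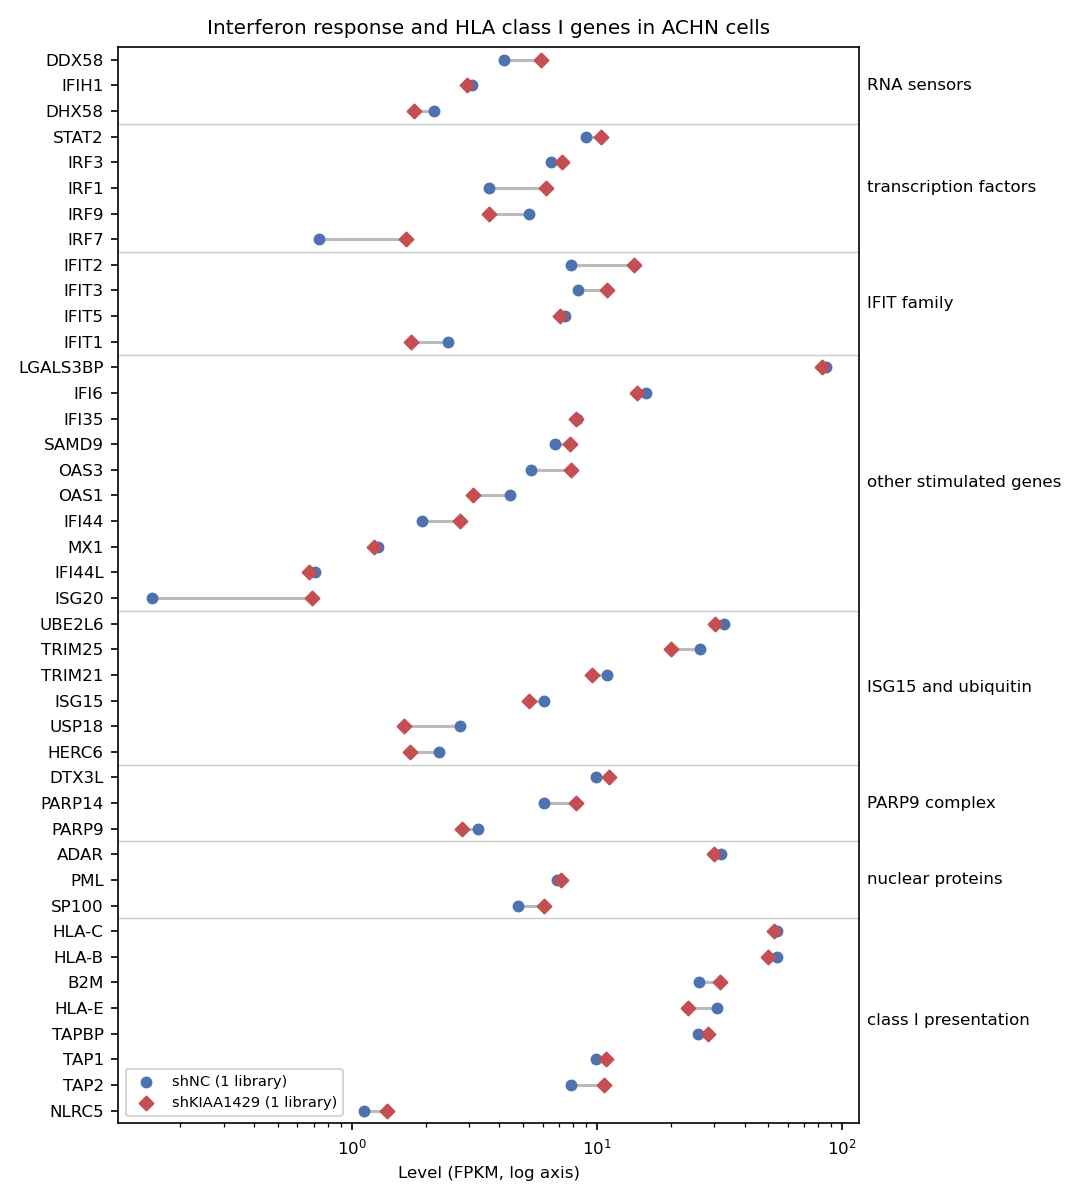
Level in FPKM (log axis) of the 42 members with a value, ordered within each role by mean level, with 1 circle for the shNC library and 1 diamond for the shKIAA1429 library. Most pairs lie close together, and the levels span from below 1 FPKM for IFI44L and ISG20 to 85.6 FPKM for LGALS3BP.

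The RNA sensors were expressed at low levels in both libraries. DDX58, which encodes RIG-I, a helicase that recognises uncapped RNA ends, was at 4.16 FPKM with shNC and 5.94 FPKM with shKIAA1429, a log2 change of 0.43. It stayed within 0.5 as deposited and was past it with a pseudocount of 0.1 and with TPM, at 0.50 and 0.66. IFIH1, encoding MDA5, a sensor of long double-stranded RNA, was at 3.10 and 2.95 FPKM. The third helicase of this family, DHX58 (LGP2), was at 2.17 and 1.79 FPKM. So 0 of the 3 sensors passed the limit as deposited, and 84.0% of all genes stayed within it too. DDX58 is the one of the 3 whose change lay nearest to it.

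Of the 5 transcription factors, IRF1 and IRF7 were higher past 0.5 and 0 were lower, beside 9.90% and 6.12% of all genes. IRF9 had the lowest change of the 5. IRF1, a factor that activates many interferon-stimulated and class I genes, was at 3.64 FPKM with shNC and 6.21 FPKM with shKIAA1429, or 171% of control, with a log2 change of 0.64. Of the 10702 genes, 601 (5.62%) had a higher change. The locus of IRF1 is chr5:131817301-131826490 (GRCh37, minus strand). The listed gene C5orf56 overlaps it on the opposite strand and was at 0.385 and 0.706 FPKM. IRF7, the master factor for the induction of type I interferon genes, was at 0.734 FPKM with shNC and 1.66 FPKM with shKIAA1429, a log2 change of 0.62. It passed the filter on low values only through the shKIAA1429 library, and its locus is chr11:612553-615999 (GRCh37, minus strand). IRF9, the DNA-binding partner of STAT2, was at 5.27 FPKM with shNC and 3.62 FPKM with shKIAA1429, or 68.6% of control, with a log2 change of -0.44. Its change was -0.50 when all changes were centred and -0.53 with a pseudocount of 0.1, just past the limit in both cases. AL136295.5 overlaps all 5513 bases of IRF9 on the same strand, and for both summed the log2 change was -0.36. STAT2 and IRF3, the most abundant factors of the group, were at 9.05 and 10.4 FPKM and at 6.52 and 7.17 FPKM.

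In the IFIT family, whose proteins bind foreign RNA and block its translation, the changes of neighbouring genes on chromosome 10 differed in sign, and IFIT2 alone passed the limit. Of all genes, 9.90% passed it upward. IFIT2 showed the largest log2 change of all members, 0.78, from 7.82 FPKM with shNC to 14.1 FPKM with shKIAA1429, or 181% of control. A higher change was found for 364 of the 10702 genes (3.40%), and IFIT2 is named here as the highest of the 40 members. Its locus is chr10:91043451-91069033 (GRCh37, plus strand). IFIT3, 18.6 kb downstream, was at 8.37 and 11.0 FPKM, a log2 change of 0.36. IFIT1, 51.6 kb beyond IFIT3, was at 2.47 FPKM with shNC and 1.75 FPKM with shKIAA1429, a log2 change of -0.33, and IFIT5 was at 7.39 and 7.07 FPKM. The printed stretches of IFIT1 and IFIT3 both hold 2 matches of the response element and that of IFIT5 holds 3. The ratio of IFIT2 to IFIT1 was 3.17 in the shNC library and 8.06 in the shKIAA1429 library. LIPA overlaps IFIT1, IFIT2 and IFIT3 on the opposite strand and was at 30.5 and 23.7 FPKM. The libraries were made with a strand-specific kit, but whether strand was used in counting is not given in the sources used here.

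Of the other interferon-stimulated genes, 8 passed the filter on low values and 0 of them passed the limit in either direction. Over all genes, 84.0% likewise stayed within the limit. LGALS3BP, a secreted glycoprotein that binds galectins, was the most abundant member in both libraries, at 85.6 and 82.5 FPKM. IFI6, a small membrane protein, was at 15.9 and 14.6 FPKM, and IFI35 was at 8.33 and 8.18 FPKM. MX1, a GTPase that blocks influenza viruses and a common readout of type I interferon, was close to the filter at 1.28 FPKM with shNC and 1.23 FPKM with shKIAA1429. These genes differed by less than 0.15 on the log2 scale. The oligoadenylate synthetases, which make the second messenger that activates RNase L, had changes of opposite sign. OAS1 was at 4.41 FPKM with shNC and 3.11 FPKM with shKIAA1429, a log2 change of -0.40. OAS3, which starts 5.13 kb past the end of OAS1 on the same strand of chromosome 12, was at 5.38 and 7.86 FPKM, a log2 change of 0.47. The log2 changes of these neighbours lay 0.87 apart, the widest gap among the 8 pairs of neighbouring members, while their summed level was 9.79 and 11.0 FPKM. OAS3 was past 0.5 with a pseudocount of 0.1, after rescaling without mitochondrial genes and with TPM, where it reached 0.70. IFI44 was at 1.93 and 2.76 FPKM, and SAMD9, a translation inhibitor, at 6.75 and 7.74 FPKM. ISG20, an exonuclease, was at 0.153 FPKM and 0.686 FPKM and IFI44L at 0.711 and 0.671 FPKM, both under the filter.

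The 6 members of the ISG15 and ubiquitin group had log2 changes below 0 as deposited, with a median of -0.22, and 4571 of the 10702 genes were below 0. HERC5, a ligase that attaches ISG15, is no member and was named after its values were seen. It was higher, at 2.69 and 4.34 FPKM, with a log2 change of 0.53 that was 0.48 after centring. After rescaling to TPM, UBE2L6 turned to 0.06 and the other 5 stayed below 0, with ISG15 and TRIM21 at -0.03 and -0.02. A single gene of the group, USP18, passed the limit, on the lower side, where 6.12% of all genes were. USP18, the protease that removes ISG15 from proteins and also damps signaling from the type I interferon receptor, was at 2.77 FPKM with shNC and 1.64 FPKM with shKIAA1429, or 59.1% of control, with a log2 change of -0.52. The locus of USP18 is chr22:18632666-18660164 (GRCh37, plus strand). Its change lay only just past the limit, at -0.51 to -0.72 over the settings tried. ISG15, a ubiquitin-like protein attached to other proteins, was at 6.08 and 5.26 FPKM. UBE2L6, the enzyme that conjugates it, was at 33.0 and 30.2 FPKM. TRIM25, the ubiquitin ligase that works with RIG-I, was at 26.4 and 20.1 FPKM, a log2 change of -0.38. TRIM21, an antibody receptor in the cytosol, was at 11.0 and 9.52 FPKM, and HERC6, a ligase, at 2.26 and 1.73 FPKM.

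PARP9, PARP14 and DTX3L encode ADP-ribosyltransferases and a ubiquitin ligase that bind one another and act in interferon signaling and DNA repair. PARP9 was at 3.27 FPKM with shNC and 2.81 FPKM with shKIAA1429, a log2 change of -0.17. DTX3L, which shares the match printed above and overlaps PARP9 head to head by 340 bases, was at 9.89 and 11.2 FPKM, a log2 change of 0.16. PARP14 was at 6.10 and 8.25 FPKM, a log2 change of 0.38. ADAR, which edits adenosine in double-stranded RNA and thereby keeps it from MDA5, was at 32.0 and 30.1 FPKM. The nuclear body proteins PML and SP100 were at 6.88 and 7.13 FPKM and at 4.77 and 6.08 FPKM. All 6 genes stayed within 0.5 on the deposited scale, as did 84.0% of all genes.

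HLA class I presentation was the most highly expressed role, and its summed level differed little between the libraries. The 8 members summed to 210 FPKM with shNC and 210 FPKM with shKIAA1429, and 0 of them passed the limit. A share of 84.0% of all genes stayed within it too. The heavy chain HLA-B was at 54.1 FPKM with shNC and 50.1 FPKM with shKIAA1429, and HLA-C was at 54.2 and 52.9 FPKM. HLA-B and HLA-C are near copies of one another, and the listed locus of HLA-B overlaps that of HLA-C by 2640 bases on the same strand, so the division of reads between them is uncertain. Their sum had a log2 change of -0.07. HLA-E, the heavy chain read by natural killer cells, had the lowest change of the group, -0.37, from 30.8 to 23.5 FPKM. B2M, the light chain shared by all class I molecules, was at 26.1 and 31.9 FPKM, a log2 change of 0.28. B2M was therefore below HLA-E in the shNC library and above it in the shKIAA1429 library, with ratios of 0.846 and 1.36. TAP1 and TAP2, which pair to form the peptide transporter, were at 9.94 and 10.9 FPKM and at 7.82 and 10.7 FPKM. PSMB9, an immunoproteasome subunit encoded opposite TAP1, was at 16.2 and 13.8 FPKM. TAPBP, the tapasin that holds class I molecules at the transporter, was at 25.9 and 28.3 FPKM. NLRC5, the transactivator of class I genes, was low at 1.12 and 1.39 FPKM.

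**Figure D2:**
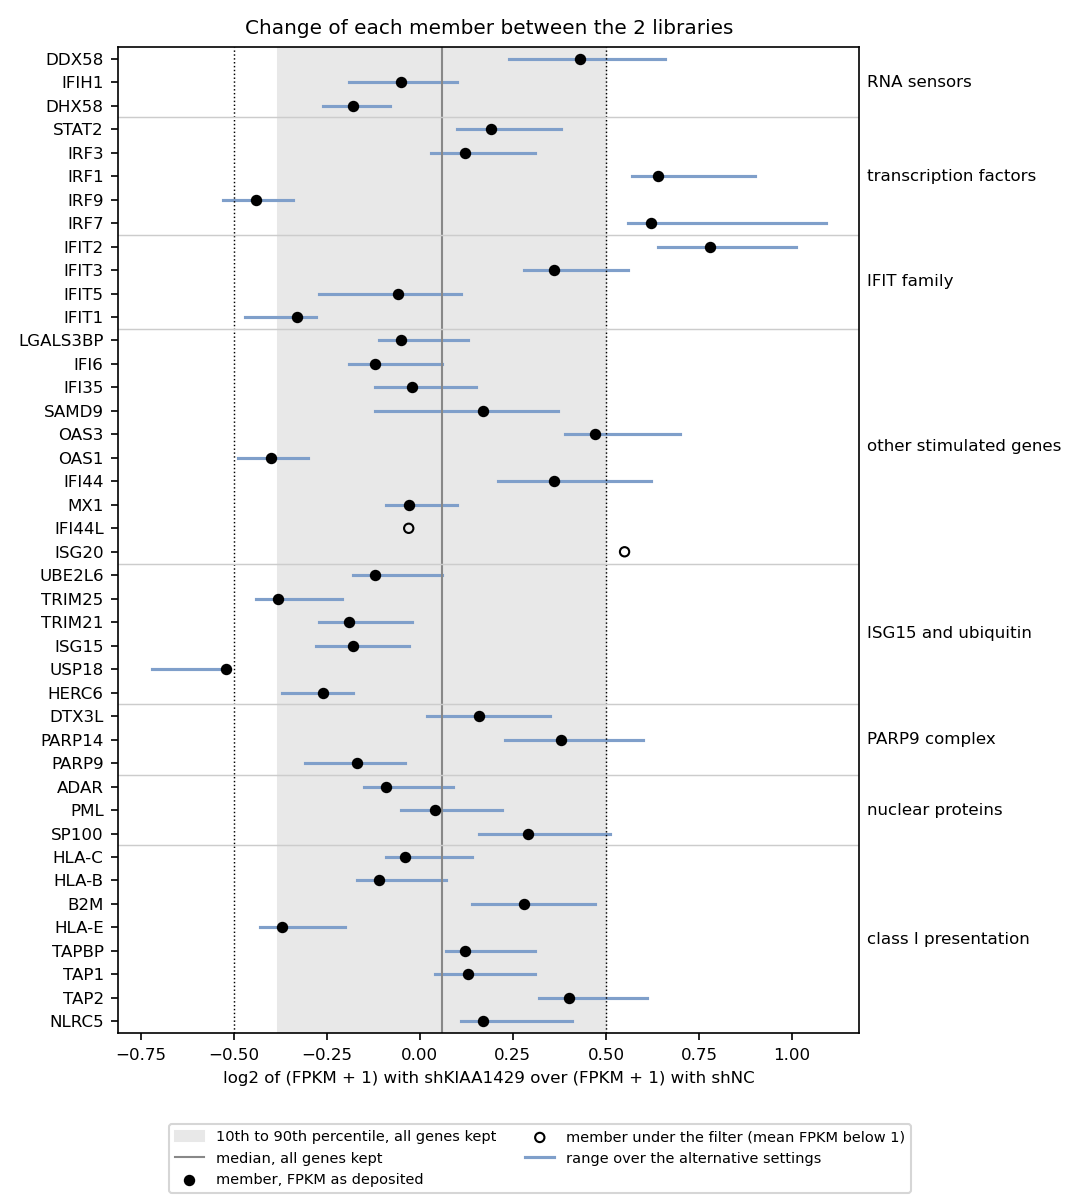
log2 change (shKIAA1429 against shNC, pseudocount of 1 FPKM) for each member (points), with its range over the alternative settings (lines), the median of all genes (0.06) and their 10th to 90th percentile (grey, -0.38 to 0.50). IFIT2, IRF1 and IRF7 lie to the right of the dotted line at 0.5 under every setting drawn and USP18 to the left of -0.5, and no other filled point is past either line.

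Members with and without the response element core overlapped in their changes. Among the members that passed the filter and had a window, the 19 with the core had a median log2 change of 0.12 and ran from -0.33 to 0.47, and the 13 without it had a median of -0.09 and ran from -0.44 to 0.64. Among all genes that could be matched, the 313 with the core had a median of 0.07 and the 8144 without it a median of 0.06. Past 0.5, 31 of the 313 were higher (9.90%) and 10 were lower (3.19%), and of the 8144 10.1% were higher and 5.93% lower. No window was matched for IFIT2, IRF7, USP18, IRF3, DHX58, PML, HLA-E and NLRC5. GC content and length were taken from the longest protein-coding transcript in GENCODE 29 for all 40 members. Over all genes the log2 change had a Spearman correlation of -0.30 with GC content and 0.19 with length, and over the members of -0.17 and 0.26, a description over genes of 1 pair of libraries. Once the median of each of 10 by 10 bins of GC content and length was removed, the median of the members was -0.01, and IFIT2, IRF1, IRF7 and USP18 were the members past 0.5, at 0.64, 0.60, 0.72 and -0.53.

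**Figure D3:**
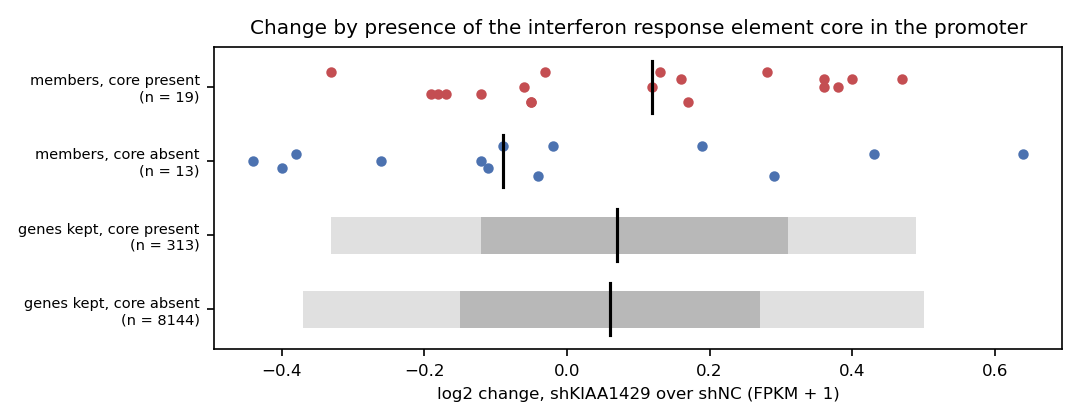
log2 change by presence of the response element core in a RefSeq promoter window, with 1 point per member and, for all genes kept, bars from the 10th to the 90th (light) and the 25th to the 75th percentile (dark). Black lines are medians, at 0.12 and -0.09 for the members and at 0.07 and 0.06 for all genes.

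Other genes of the pathway were taken from lists that hold no member and that were chosen with earlier results of these data known. The lists held 88 genes, of which 73 had a value and 68 passed the filter. Of these 68, 12 (17.6%) were higher past 0.5 and 4 (5.88%) were lower, beside 9.90% and 6.12% of all genes, and their median was 0.07. With TPM the counts were 18 and 3, beside 23.9% and 4.59% of all genes, so the share of higher genes stood less far above that of all genes on this scale.

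Of the receptors, kinases and STAT3, 3 of the 8 genes reported were higher past 0.5, where 9.90% of all genes were, and after centring IFNAR1 was the one of these 3 still past it. The median log2 change of 0.23 over the 8 genes was 0.06 with no filter, over 10 genes, and 0.37 over the 7 with a mean of at least 5 FPKM. IFNAR1, of the type I receptor, was at 4.22 and 7.60 FPKM, a log2 change of 0.72, and IFNGR1, the ligand-binding chain of the interferon gamma receptor, was at 4.98 and 7.66 FPKM, a log2 change of 0.53 that was 0.48 after centring. Their partner chains, named here after their values were seen, were at 6.99 and 9.33 FPKM for IFNAR2 and 14.9 and 11.4 FPKM for IFNGR2. STAT3 was at 11.0 and 16.2 FPKM, a log2 change of 0.52 (0.46 after centring), and JAK1, the kinase common to these receptors, at 56.8 and 60.3 FPKM.

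In the list of sensing adaptors and kinases, 1 of 9 genes (11.1%) was higher and 1 (11.1%) was lower, beside 9.90% and 6.12% of all genes. The higher and the lower gene were the related kinases that phosphorylate IRF3. TBK1 was at 11.5 FPKM with shNC and 19.0 FPKM with shKIAA1429, a log2 change of 0.68, and IKBKE was at 1.64 and 0.757 FPKM, a log2 change of -0.59. IKBKE passed the filter only through the shNC library. EIF2AK2 (PKR), the kinase that halts translation on double-stranded RNA, was at 12.2 and 13.7 FPKM. Of 27 other interferon-stimulated genes, 7 (25.9%) were higher and 1 (3.70%) was lower, beside 9.90% and 6.12% of all genes. Their median was 0.07, against 0.06 over all genes. With TPM, these 7 stayed higher past 0.5 and PARP10 joined them at 0.56, on a scale where 23.9% of all genes were higher. The higher ones as deposited included GBP3 (6.37 and 11.7 FPKM), APOL2 (5.09 and 9.32 FPKM), SP110 (4.43 and 8.11 FPKM), PNPT1 (8.01 and 13.3 FPKM) and SAMD9L (4.29 and 7.14 FPKM), with log2 changes of 0.62 to 0.79. The lower gene was IFITM1, at 3.06 and 1.47 FPKM. Its listed locus lies within that of its near copy IFITM2 on the same strand, so its level is uncertain, and IFITM2 was at 35.8 and 37.6 FPKM. IFITM3, a restriction factor for virus entry and the most abundant of these genes, was at 160 and 169 FPKM.

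Negative regulators had a median log2 change of -0.10 over 9 genes (0.07 with TPM). Past 0.5, 0 were higher and 1 (11.1%) was lower, beside 9.90% and 6.12% of all genes. The lower one was PTPN6, the phosphatase SHP-1, at 6.28 and 3.75 FPKM. PTPN11 and SOCS3 were at 43.6 and 55.6 FPKM and at 15.5 and 14.3 FPKM. Of 15 other genes of antigen presentation, 1 (6.67%) was higher and 1 (6.67%) was lower past 0.5, beside 9.90% and 6.12% of all genes. HLA-F, a nonclassical heavy chain with near copies in the class I region, was at 0.863 and 1.89 FPKM and passed the filter only through the shKIAA1429 library. CANX, the chaperone calnexin that folds class I heavy chains, was at 62.0 FPKM with shNC and 41.1 FPKM with shKIAA1429, a log2 change of -0.58 that was -0.41 with TPM, while CALR, its soluble relative, was at 102 and 116 FPKM. The proteasome activator PSME1 was at 67.4 and 63.7 FPKM.

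**Figure D4:**
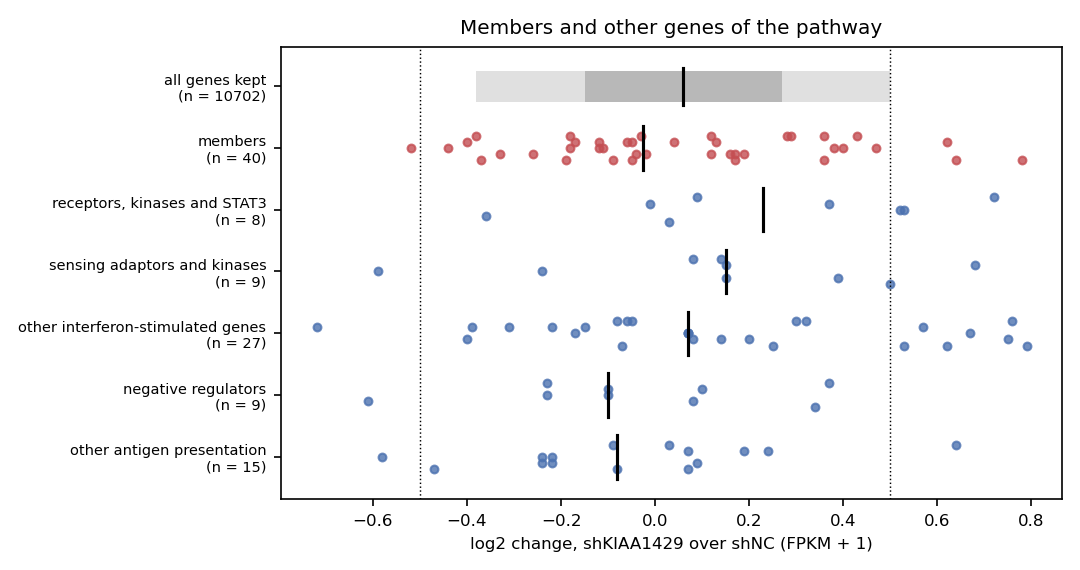
log2 change of the 40 members and of the genes of each other pathway list (1 point per gene, black lines are medians), with all genes kept as bars from the 10th to the 90th (light) and the 25th to the 75th percentile (dark). The list medians run from -0.10 to 0.23, and 0 genes pass 1.5 in either direction.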

How the data were processed

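Poly(A) RNA of ACHN cells with shKIAA1429 or shNC was sequenced on both ends in strand-specific libraries, 1 library per group. Cutadapt 1.9, HISAT2 2.0.4 and StringTie 1.3.4d are named in the submitters' processing notes, and the genome build is not given in the sources used here; positions are those of GENCODE genes on GRCh37. The authors deposited FPKM per gene, for protein-coding genes above 0.5 FPKM in at least 1 library. FPKM keeps no count, so the depth behind a value is unknown.

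Log2 changes used a pseudocount of 1 FPKM, and 10702 symbols passed a mean of 1 FPKM or more. Of 7 symbols listed repeatedly, only the row of higher mean entered. The limit of 0.5 was applied beside the limit of 1.5 in the study's methods, here without DESeq2 or a p-value limit. Values were given for members past 0.5, for the most abundant of each role and, of each pathway list, for at most 6 genes past 0.5 by size and the 2 most abundant; other members were named with their values too. Members and lists were chosen with earlier results of these data known. Identity between paralogous proteins was not computed. Some genes of the pathway are not reported here and were left out of the lists and their counts. Alternatives are given in the closing section. Promoter windows are from RefSeq, matched by symbol, and 45 of the 47 member windows continued into an annotated GENCODE 29 transcript. The steps were tested on simulated data. Software comprised SciPy 1.17.1, pandas 2.3.3 and NumPy 2.4.6 under Python 3.11.15, with matplotlib 3.10.9 for plots.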

Additional observations from a re-analysis of the deposited data

How the results depend on the processing

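With 1 library per group, neither an error nor a test can be given, and each difference may be one between single cultures. The median of -0.03 for the members became 0.15 after rescaling to TPM, where the median of all genes became 0.24 in place of 0.06, and 0.12 over the 27 members with a mean of at least 5 FPKM. By construction, TPM changes both the ratio of the library sums and the weight of the pseudocount, and their shares in the move were not separated. The count of 3 higher members became 10 with TPM, 5 with a pseudocount of 0.1 and 1 with a mean of at least 5 FPKM. In the same order, 23.9%, 13.9% and 10.2% of all genes were higher. The count of 1 lower member became 2 with that pseudocount, after centring, after rescaling without mitochondrial genes and after centring in 20 bins of mean FPKM, and 0 with a mean of at least 5 FPKM. Over all genes, the shares that were lower came to 8.73%, 7.69%, 8.39%, 7.87% and 5.94%, in that order. At a limit of 1 both counts were 0, where 1.61% of all genes were higher and 0.897% lower. At 1.5 both counts were 0 as well, beside 0.383% and 0.252% of all genes. IFIT2, IRF1, IRF7 and USP18 stayed past 0.5 under the 8 settings with a value for each of them. These include the bins of GC content and length, a setting added after the data had been seen. All 8 rework the same 2 values of a gene, so they are no replicate check, and summing rows or overlapping genes left these changes as they were. A mean of at least 5 FPKM left out IRF1, IRF7 and USP18. IRF7 passed the filter on low values only through the shKIAA1429 library. Under at least 1 of the 8 settings, 8 other members passed 0.5, and the share of all genes that did so was not counted. A change of sign was found for 12 of 40 members, none above 0.17 in size as deposited. Summing rows of a symbol, summing or leaving out genes that overlap on the same strand, and no filter left the median between -0.03 and 0.04. No paired analysis was possible because each group holds a single library.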

Other observations

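HLA class II genes, chosen after their values were seen, were also listed in this epithelial line. CD74, the invariant chain of class II molecules, was at 61.0 FPKM with shNC and 43.6 FPKM with shKIAA1429, a log2 change of -0.47. HLA-DPA1 and HLA-DPB1 were at 4.71 and 4.22 FPKM and at 5.30 and 4.55 FPKM, and HLA-DMA and HLA-DMB at 3.68 and 5.33 FPKM and at 2.57 and 2.11 FPKM. HLA-DRB1, whose near copies make its level uncertain, was at 0.536 and 2.49 FPKM, a log2 change of 1.19. It reached a mean of 1 FPKM only through the shKIAA1429 library. Of all genes, 1.61% were higher past 1. CIITA, the transactivator of class II genes, was not analysed here.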
